A study of Homo sapiens with 6 samples.

Results

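The G1 cyclins, the cyclin-dependent kinases (CDKs) they activate and 2 CDK inhibitors were examined in human U251 glioma cells after knockdown of the ribosomal protein gene RPL13. The members were chosen by gene symbol: the D cyclins CCND1, CCND2 and CCND3, the E cyclins CCNE1 and CCNE2, the kinases CDK2, CDK4 and CDK6, and the inhibitors CDKN1B and CDKN2C. Rows were found for 8 of the 10 symbols among the 21429 genes of the table. CCND2 and CDKN2C were not analysed here, so "members" below means the other 8, all of which passed the filter on low values. Transcripts were profiled by RNA sequencing in 6 libraries, 3 per group, of U251 cells with stable expression of amyloid precursor protein carrying the K670N/M671L change. One group was electroporated with a control siRNA (siNC) and the other with an siRNA against RPL13 (siRPL13). Both groups received doxycycline at 1 µg/mL when the medium was renewed at 24 h to induce the precursor, and both were harvested at 72 h. U251 is an established line of glioma cells, known to lack the CDK inhibitor gene CDKN2A, and the sources used here do not give whether the engineered cells were a single clone.

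D cyclins bind CDK4 and CDK6 in G1 and start the phosphorylation of the retinoblastoma protein RB1. This frees E2F transcription factors, which drive the E cyclins and the genes of DNA synthesis, and cyclin E with CDK2 then completes the step into S phase. CDKN1B (p27) restrains cyclin E with CDK2, and the INK4 inhibitors block CDK4 and CDK6. In glioma this pathway is often altered.

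The promoters of CDK4 and CDKN1B are shown because all 3 siRPL13 libraries lay on one side of all siNC libraries. The margin was narrow for both genes in the library labelled siRPL13 replicate 3, and for CDK6 it was a near tie. The promoter of CCND3 is shown because this gene had the lowest adjusted p of the members. Each run is the 250 bases before a RefSeq start (GRCh38.p14, plus strand for CDKN1B and minus strand for CDK4 and CCND3), 5′ to 3′, and capitals mark CACGTG (the E-box bound by MYC and related factors) and CCAAT, searched on both strands.
CDK4 (chr12:57752311-57752560): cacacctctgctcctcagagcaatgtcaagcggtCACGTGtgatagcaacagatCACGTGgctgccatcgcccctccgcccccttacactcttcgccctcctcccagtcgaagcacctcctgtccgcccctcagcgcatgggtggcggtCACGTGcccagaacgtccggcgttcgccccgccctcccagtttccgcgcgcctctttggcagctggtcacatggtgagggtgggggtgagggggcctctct
CDKN1B (chr12:12717118-12717367): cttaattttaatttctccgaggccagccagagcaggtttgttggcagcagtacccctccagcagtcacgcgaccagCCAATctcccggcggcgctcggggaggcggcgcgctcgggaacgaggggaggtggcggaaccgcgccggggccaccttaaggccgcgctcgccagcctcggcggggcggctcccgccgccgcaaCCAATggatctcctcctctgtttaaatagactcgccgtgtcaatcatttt
CCND3 (chr6:41941809-41942058): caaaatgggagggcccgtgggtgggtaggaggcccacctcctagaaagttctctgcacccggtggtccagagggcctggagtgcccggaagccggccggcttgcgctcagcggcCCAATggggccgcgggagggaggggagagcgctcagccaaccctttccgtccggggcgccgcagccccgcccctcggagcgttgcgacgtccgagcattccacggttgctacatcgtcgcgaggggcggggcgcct

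The CDK4 window held 3 E-boxes, beginning 216, 196 and 101 bases before the start. An E-box was present in 6.34% of 35116 windows of the same length in the RefSeq promoter table. The CDKN1B window held 2 CCAAT boxes, at 174 and 50 bases before the start, and the CCND3 window held 1, at 136 bases; CCAAT occurred in 32% of all windows. The E2F motif, searched as TTTCCCGC, TTTGGCGC, TTTCGCGC and TTTGCCGC, was in none of the 5 member windows searched (CCND3, CCNE1, CDK4, CDK6 and CDKN1B) and in 2.79% of all windows. No window of CCND1, CCNE2 or CDK2 was searched, so the lack of the E2F motif does not extend to them. These matches describe letters in a window and were not tested for factor binding.

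The level of RPL13 itself decides how the libraries are read. Its regularized-log (rlog) values, on a log2 scale and in the order of replicates 1 to 3 as throughout, were 14.05, 14.16 and 14.18 with siNC and 13.03, 13.12 and 14.09 with the siRPL13 label. The target was thus within the siNC range in 1 of 3 siRPL13 libraries, and whether the knockdown failed there or the label is wrong cannot be told apart. Comparisons are therefore given with all 6 libraries and without that library (the 5-library comparison). "Fell" and "rose" are kept for genes past limma's threshold (adjusted p under 0.05) without that library. The siRPL13-labelled replicate 3 also differed in STMN2, 1 of 5 neuron markers, at 7.71 against 4.61 to 4.66 in the other libraries. Of the rest of that list, RBFOX3, SYP and SNAP25 lay within the siNC range in this library. MAP2 lay above it, at 10.66 against 10.38 to 10.60. APP, whose own and introduced copies were not told apart, stood between 18.29 and 18.43. Of 10 astroglial and glioma markers 9 had rows, with the intermediate filament gene GFAP at 14.73 to 15.50, VIM at 15.90 to 16.33 and S100B low at 5.48 to 5.83. VIM and the progenitor filament gene NES, 2 of these 9, fell by 0.31 and 0.34 (log2; adjusted p 0.00910 and 0.00227, limma), with 6-library differences of -0.29 and -0.25 (adjusted p 0.589 for both). GFAP lay lower in all 3 siRPL13 libraries than in any siNC library, but its difference did not pass (-0.31, adjusted p 0.0985, limma, 5 libraries). The list's summed log2 level was 17.65 to 17.87 in siNC and 17.50 to 17.59 in siRPL13. Its most abundant genes, such as VIM and CD44, dominate that sum. The median 5-library difference of the 9 genes was -0.04. Of these differences 6 were negative, and those of SOX2, SOX9 and CD44 were positive, at 0.08, 0.06 and 0.07. Of 3 endothelial markers, the cadherin gene CDH5 fell by 0.46 (adjusted p 0.00340) and the VEGF receptor gene KDR rose by 0.21 (adjusted p 0.0234), with 6-library differences of -0.35 and 0.13 (adjusted p 0.589 and 0.640). The part of these markers in the results was not tested. The leukocyte markers CD68 and ITGAM lay between 0.19 and 0.40 in all 6 libraries. In bulk RNA, fewer cells in a cycle phase and less RNA per cell cannot be told apart.

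With all 6 libraries, 0 of 8 members passed the limma test, as did 0% of the 15327 genes tested in either direction (smallest adjusted p 0.589). At an unadjusted p under 0.05 there were 1275 genes, 1 of them a member, CDKN1B. In the 5-library comparison CCND3, CCNE1, CDK2 and CDKN1B fell, 4 of 8 members, against 10.7% of all genes tested that were called lower. No member was called higher (0 of 8, against 8.42% of all genes). Without siRPL13 replicate 1 as well, the count of members called lower became 0. The median log2 difference of the members was -0.25, and that of all genes tested was -0.0014. With quantile scaling of the libraries the split among the members became 3 lower and 2 higher, because CCNE1 no longer passed and CDK4 and CDK6 did.

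**Figure D1:**
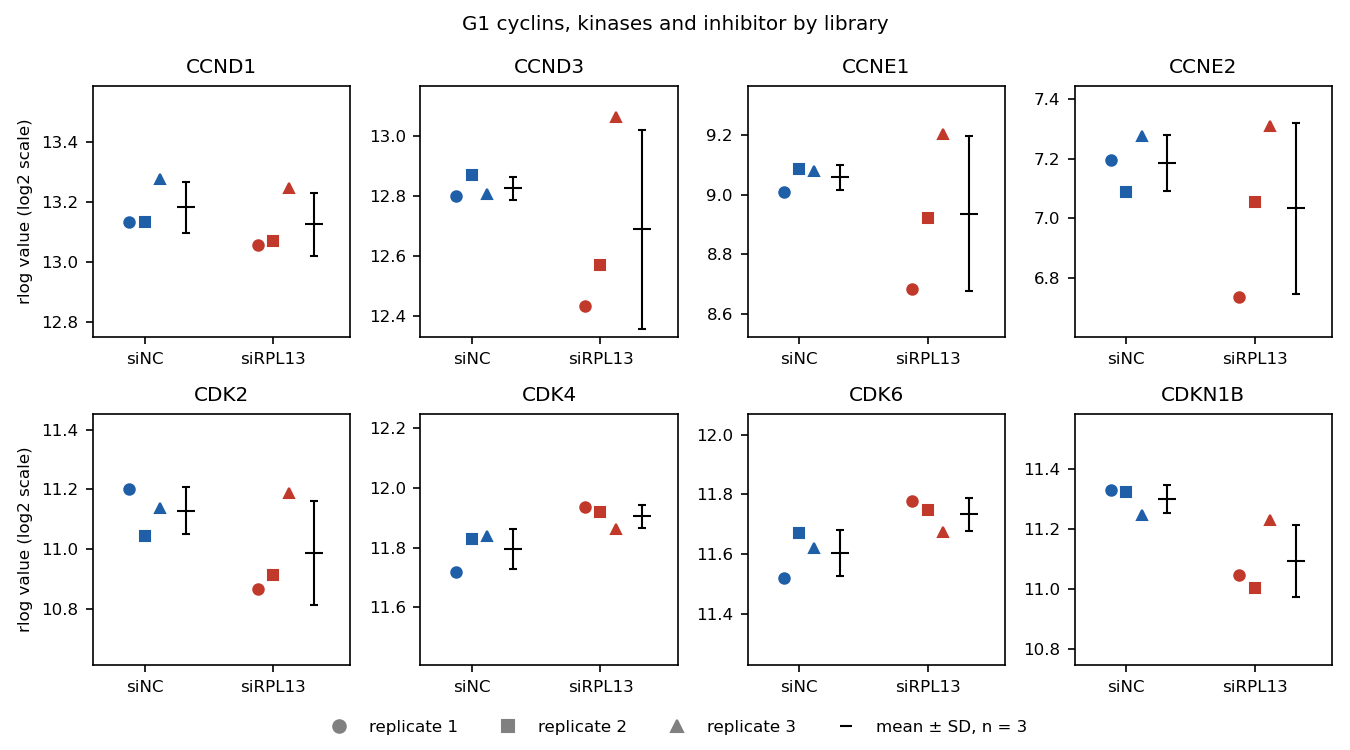
Level of the 8 members as rlog values (vertical axes, log2 scale, equal spans that do not start at 0), 1 point per library, siNC blue, siRPL13 red, marker shapes for replicate numbers, with a bar for the mean ± SD of 3 libraries. The red triangle, the siRPL13-labelled replicate 3, lies above every siNC point for CCND3, CCNE1, CCNE2, CDK4 and, by less than 0.01, CDK6.

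Among the D cyclins, CCND3 fell and the difference of CCND1 did not pass. CCND1, the D cyclin often amplified in tumours, stood at 13.13, 13.13 and 13.28 in siNC and at 13.06, 13.07 and 13.25 in siRPL13. Its siRPL13 libraries overlapped the siNC range, with replicates 1 and 2 just below it. The log2 difference was -0.12 ± 0.06 (SE) in the 5-library comparison, with a 95% interval from -0.24 to 0.0064 and an adjusted p of 0.170 (limma). Over 6 libraries it was -0.06 ± 0.07, with an interval from -0.22 to 0.11. CCND1 passed only with library weights, which are provisional (adjusted p 0.0356 with 5 libraries and 0.0307 with 6, limma). CCND3 (GRCh38 chromosome 6, 41934933 to 42050357, minus strand) stood at 12.80, 12.87 and 12.81 in siNC and at 12.43, 12.57 and 13.07 in siRPL13. Replicates 1 and 2 were below all siNC libraries and the siRPL13-labelled replicate 3 was above them all. CCND3 fell by 0.33 ± 0.06 (SE, log2) in the 5-library comparison, to 79.8% of siNC on the rlog scale (adjusted p 0.00343, limma). With all 6 libraries the difference was -0.14 ± 0.14 (adjusted p 0.754). Leaving out siRPL13 replicate 1 also ended the 5-library call (adjusted p 0.115).

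Both E cyclins, which activate CDK2 at the end of G1, lay lower in siRPL13 replicates 1 and 2 than in any siNC library. CCNE1 (chromosome 19, 29811898 to 29824308, plus strand) stood at 9.01, 9.08 and 9.08 in siNC and at 8.68, 8.92 and 9.20 in siRPL13. The siRPL13-labelled replicate 3 was the highest of the 6. CCNE1 fell by 0.25 ± 0.08 (SE, log2) in the 5-library comparison, to 83.8% of siNC, with an adjusted p of 0.0466 (limma) that lies just inside the threshold. Leaving out siNC replicate 2 (adjusted p 0.0942, limma), siNC replicate 3 (0.105) or siRPL13 replicate 1 (difference -0.13) ended the call. So did quantile scaling and a fit without the filter on low values. Over 6 libraries the CCNE1 difference was -0.12 ± 0.12 (adjusted p 0.745). CCNE2, the scarcer E cyclin transcript here, stood at 7.19, 7.09 and 7.28 in siNC and at 6.74, 7.05 and 7.31 in siRPL13. The gap between siRPL13 replicate 2 and the lowest siNC library was smaller than the siNC range. Its log2 difference of -0.29 ± 0.10 in the 5-library comparison (95% interval -0.51 to -0.07) had an adjusted p of 0.0686, which became 0.0419 without siRPL13 replicate 2. With library weights, which are provisional, CCNE2 passed in the 5-library comparison (adjusted p 0.0300, limma). Over 6 libraries the CCNE2 difference was -0.15 ± 0.14 (adjusted p 0.718). Without siRPL13 replicate 1 the CCNE2 difference was -0.13. Its exons overlap those of INTS8 on the opposite strand over 1629 bases, and the sources used here do not say whether counting used strand. INTS8, an Integrator complex gene, stood at 9.72, 9.57 and 9.61 in siNC and at 9.81, 9.73 and 9.52 in siRPL13.

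Of the 3 kinases, CDK2 fell, and the differences of CDK4 and CDK6 did not pass. CDK2, the partner of cyclin E and cyclin A, stood at 11.20, 11.05 and 11.14 in siNC and at 10.87, 10.91 and 11.19 in siRPL13. The siRPL13-labelled replicate 3 lay within the siNC range and the other siRPL13 libraries lay below it. CDK2 (chromosome 12, 55966769 to 55972784, plus strand) fell by 0.24 ± 0.06 (SE, log2), to 84.7% of siNC (adjusted p 0.0171, limma, 5 libraries). Leaving out siRPL13 replicate 1 (adjusted p 0.213) or 2 (0.0976) ended that call, and with all 6 libraries the difference was -0.14 ± 0.09 (adjusted p 0.642).

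CDK4 and CDK6, the partners of the D cyclins, had higher mean values in siRPL13 than in siNC. CDK4 (chromosome 12, 57747727 to 57756013, minus strand) stood at 11.72, 11.83 and 11.84 in siNC and at 11.94, 11.92 and 11.86 in siRPL13. All 3 siRPL13 libraries were above all siNC libraries, and the siRPL13-labelled replicate 3 exceeded the highest siNC library by less than the siNC range. The log2 difference was 0.13 ± 0.05 (SE; 95% interval 0.01 to 0.25) without that library (adjusted p 0.108, limma) and 0.11 ± 0.06 over 6 libraries (adjusted p 0.60). CDK6 stood at 11.52, 11.67 and 11.62 in siNC and at 11.78, 11.75 and 11.67 in siRPL13. The lowest siRPL13 value and the highest siNC value were equal to 2 decimals. The CDK6 difference was 0.16 ± 0.06 (95% interval 0.04 to 0.28) in the 5-library comparison (adjusted p 0.0707, limma) and 0.13 ± 0.06 over 6 libraries (adjusted p 0.590). With quantile scaling the adjusted p in the 5-library comparison became 0.0490 for CDK4 and 0.0389 for CDK6, and that of CDK6 was 0.0384 without siNC replicate 2. With library weights, which are provisional, CDK6 passed with 5 and with 6 libraries (adjusted p 0.0292 and 0.0227, limma). CDK4 passed with weights over 6 libraries only (0.0471). The exons of CDK4 overlap those of TSPAN31, a tetraspanin gene on the opposite strand, over 1369 bases. TSPAN31 lay between 8.71 and 8.91 in the 6 libraries, with siRPL13 replicates 1 and 2 inside its siNC range.

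CDKN1B was the member whose 3 siRPL13 libraries all lay below all siNC libraries. It stood at 11.33, 11.32 and 11.25 in siNC and at 11.05, 11.00 and 11.23 in siRPL13. The siRPL13-labelled replicate 3 was 0.07 below the siNC mean. It was below the lowest siNC library by a margin much smaller than the siNC range (11.23 against 11.25). CDKN1B (chromosome 12, 12715058 to 12722371, plus strand) fell by 0.28 ± 0.05 (SE, log2) in the 5-library comparison, to 82.6% of siNC (adjusted p 0.00561, limma). Over 6 libraries the difference was -0.21 ± 0.07, with a 95% interval from -0.37 to -0.04, an unadjusted limma p of 0.0202 and an adjusted p of 0.589. Leaving out siRPL13 replicate 1 (adjusted p 0.0856) or 2 (0.0855), which leaves 1 siRPL13 library, ended the 5-library call. Its counts against the background were 1 of 8 members with all siRPL13 below all siNC libraries, against 6.9% of all genes tested, and 2 of 8 with all above (CDK4 and CDK6), against 6.92%. With quantile scaling CDK6 no longer separated, leaving 1 of 8 above.

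**Figure D2:**
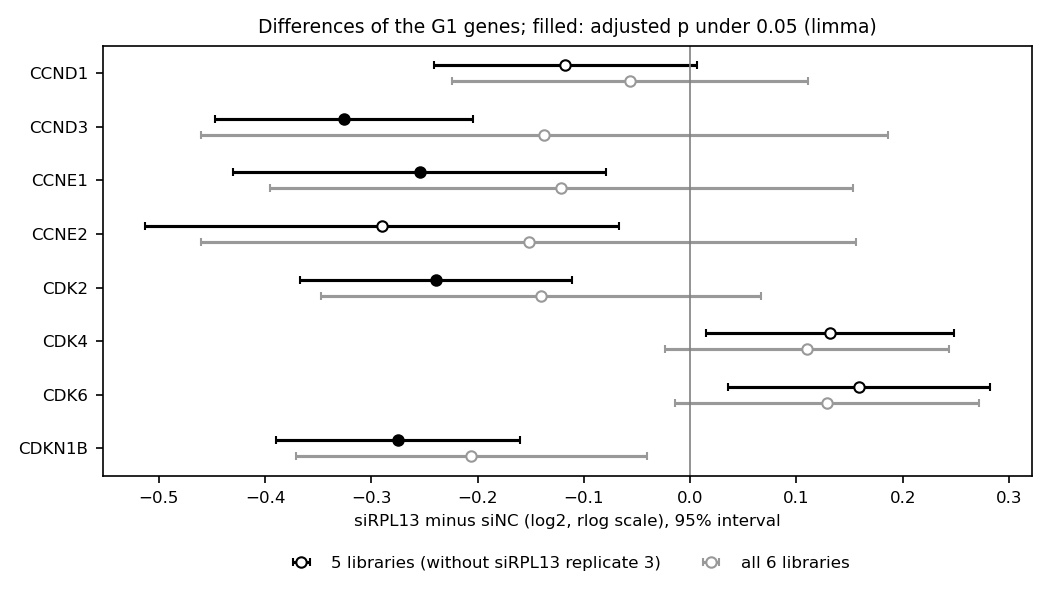
Difference siRPL13 minus siNC of the 8 members (horizontal axis, log2, rlog scale), with limma's 95% interval, in black for the 5-library comparison and in grey for all 6 libraries; filled points had an adjusted p under 0.05. Filled points are CCND3, CCNE1, CDK2 and CDKN1B in the 5-library comparison, at -0.33, -0.25, -0.24 and -0.28.

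The order of the libraries was shared by several members. In siRPL13 replicates 1 and 2 the values of 6 of 8 members were below all siNC libraries, against 26.6% of all genes tested, and 2 of 8 were above, against 24.7%. In the siRPL13-labelled replicate 3, 5 of 8 were above all siNC libraries (29.4% of all genes), 1 of 8 was below (27.9%) and 2 lay within. The median deviation of the members from the siNC mean was -0.26, -0.13 and 0.07 in siRPL13 and between -0.04 and 0.03 in siNC. CCND3 had the widest range over the 6 libraries. The genes nearest to its pattern, by the root mean square difference of mean-centred values over 6 libraries, were WDR90, C1QTNF2 and POLA2 at 0.028, 0.030 and 0.031 (log2). WDR90, the nearest, stood at 8.76, 8.81 and 8.76 in siNC and at 8.35, 8.46 and 8.95 in siRPL13. POLA2, the gene of a DNA polymerase alpha subunit and the last of these in nearness, stood at 10.46, 10.44 and 10.41 in siNC and at 10.09, 10.21 and 10.68 in siRPL13. For CCNE2, with the next widest range, they were the kinetochore gene NUF2, TMEM143 and the centromere protection gene SGO2 at 0.046 to 0.050. Of the 12620 genes compared, those with a mean rlog of at least 5, 680 lay within 0.1 of CCND3 and 214 within 0.1 of CCNE2. Whether these neighbours share a function was not tested.

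Levels can be set side by side between genes only per length. Per kilobase of all annotated exons (GENCODE 29), the siNC mean on the log2 scale was highest for CCND1 at 10.91 ± 0.08 (SD, n = 3), followed by CCND3 at 10.29 ± 0.04 and CDK4 at 10.13 ± 0.07. CDKN1B stood at 9.81 ± 0.05, CDK2 at 9.17 ± 0.08, CDK6 at 7.99 ± 0.08, CCNE1 at 7.71 ± 0.04 and CCNE2 at 5.05 ± 0.09. Each neighbouring pair in this order differed by more than its spread in siNC. That spread is between libraries and does not cover errors in length or in the counting of overlapping exons. In siRPL13 replicates 1 and 2 the order of CCND3 (9.89 and 10.03) and CDK4 (10.27 and 10.25) was the opposite, and in the siRPL13-labelled replicate 3 it was that of siNC (10.53 and 10.20). The length of the transcripts these cells use is not known from the table, and a shorter CCND3 or CDK4 transcript would shift such an order. So could the handling of reads in shared exons, since 1369 of the 3168 exon bases of CDK4 overlap TSPAN31. The place of CDK4 beside CCND1 and CCND3 is therefore uncertain.

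Of the other CDK inhibitors, CDKN1A, CDKN1C and CDKN2D had rows and all 3 fell. CDKN2A and CDKN2B were not analysed here. CDKN1A (p21), a p53 target that inhibits several CDKs, stood at 11.58, 11.68 and 11.33 in siNC and at 10.72, 10.79 and 11.70 in siRPL13, the last value above all siNC libraries. It fell by 0.77 ± 0.09 (SE, log2; adjusted p 0.000538, limma, 5 libraries), and its difference over 6 libraries was -0.46 ± 0.23 (adjusted p 0.595). CDKN1C (p57), of the same family as CDKN1B, stood at 7.39, 7.40 and 7.34 in siNC and at 6.90, 6.86 and 7.16 in siRPL13. Like CDKN1B it was lower in all 3 siRPL13 libraries than in any siNC library. CDKN1C fell by 0.49 ± 0.07, to 71.0% of siNC (adjusted p 0.00188), and its difference over 6 libraries was -0.40 ± 0.09 (unadjusted p 0.00189, adjusted p 0.589, limma). CDKN2D (p19, an INK4 inhibitor of CDK4 and CDK6) stood at 9.85, 9.86 and 9.78 in siNC and at 9.53, 9.63 and 9.92 in siRPL13. It fell by 0.25 ± 0.06 (adjusted p 0.0178), a call lost without siRPL13 replicate 1 (0.255) or 2 (0.0677), and its 6-library difference was -0.14 ± 0.10 (adjusted p 0.658).

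**Figure D3:**
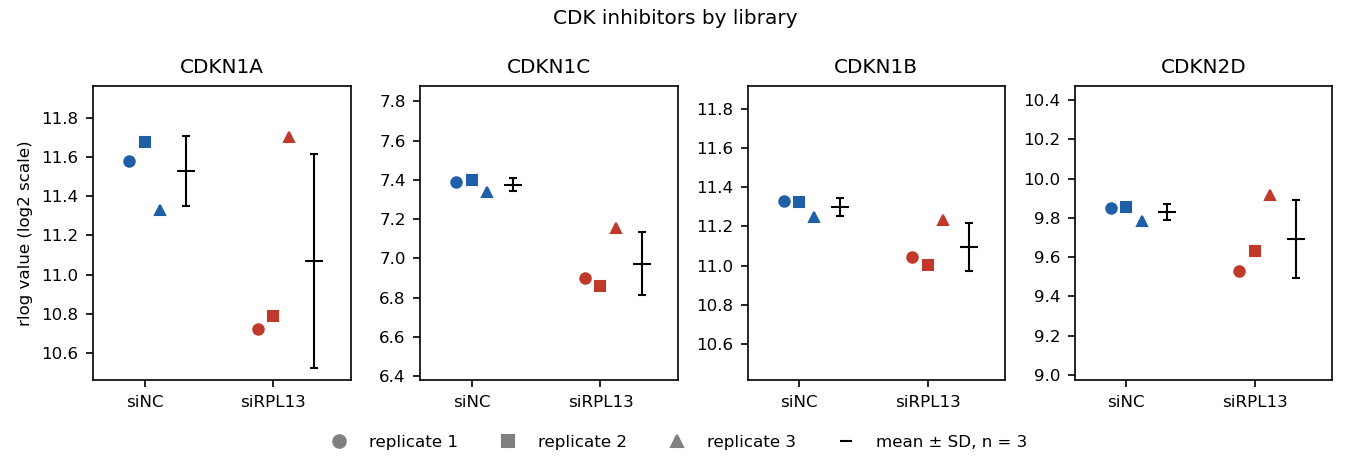
Level of 4 CDK inhibitor genes as rlog values (vertical axes, log2 scale, equal spans that do not start at 0), 1 point per library, siNC blue, siRPL13 red, marker shapes for replicate numbers, with a bar for the mean ± SD of 3 libraries. The siRPL13-labelled replicate 3 lies below the siNC points for CDKN1B and CDKN1C and above them for CDKN1A and CDKN2D.

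The list of other G1 control genes, with 30 symbols, had 28 rows tested. In the 5-library comparison 8 fell and 0 rose, against 10.7% and 8.42% of all genes tested, with a median log2 difference of -0.10 against -0.0014. Besides the 3 inhibitors these were E2F2 and E2F1, activators of S phase genes, their partner TFDP1, the phosphatase gene CDC25A, which activates CDK2, and WEE1, a kinase that inhibits CDKs. E2F2 stood at 9.80, 9.72 and 9.80 in siNC and at 9.24, 9.37 and 9.95 in siRPL13. E2F2 fell by 0.47 ± 0.06 (SE, log2; adjusted p 0.00124, limma), with an adjusted p of 0.0510 when siRPL13 replicate 1 was left out and a 6-library difference of -0.25 ± 0.16 (adjusted p 0.637). The differences of CDC25A, WEE1, TFDP1 and E2F1 were -0.25, -0.25, -0.20 and -0.18, with adjusted p-values from 0.0182 to 0.0440, and over 6 libraries -0.07, -0.20, -0.12 and -0.08. The call of E2F1, the weakest of these, held in 3 of 11 alternatives, with adjusted p-values from 0.00964 to 0.410. It was lost without any filter, with quantile scaling, without a trend, with the replicate block (adjusted p 0.160), and without siNC replicate 2 (0.0507), siNC replicate 3 (0.124), siRPL13 replicate 1 (0.410) or siRPL13 replicate 2 (0.128). Leaving out siRPL13 replicate 1 or 2 ended the calls of CDC25A (adjusted p 0.294 and 0.0505), WEE1 (0.217 and 0.0982) and TFDP1 (0.255 and 0.104), and leaving out siNC replicate 3 ended that of CDC25A (0.0576). In CDKN1C and WEE1, 2 of 28 genes, all 3 siRPL13 libraries were below all siNC libraries, against 6.9% of all genes tested, the margin for WEE1 being 10.40 against 10.41. In E2F4, a repressor E2F, they were all above (1 of 28, against 6.92%). E2F4 stood at 11.58, 11.72 and 11.73 in siNC and at 11.82, 11.79 and 11.91 in siRPL13, and its difference was 0.12 ± 0.06 (SE) in the 5-library comparison (adjusted p 0.160, limma) and 0.16 ± 0.06 over 6 libraries (unadjusted p 0.0395, adjusted p 0.589). Over all 6 libraries 0 of 28 passed, and the median difference was -0.05. The count of 8 became 2 without siRPL13 replicate 1 and 3 without siRPL13 replicate 2. RB1, the retinoblastoma protein gene, stood at 10.78, 10.80 and 10.79 in siNC and at 10.89, 10.90 and 10.80 in siRPL13, a 5-library difference of 0.10 ± 0.05 (adjusted p 0.170) and a 6-library difference of 0.07 ± 0.06 (adjusted p 0.685). RB1 was picked for its place in the pathway after its values had been seen.

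Of 15 markers of S phase and proliferation, 10 fell and 0 rose in the 5-library comparison, against 10.7% and 8.42% of all genes tested, with a median log2 difference of -0.30. TYMS, the thymidylate synthase gene, fell by 0.39 ± 0.06 (SE, log2) and CDC6, a replication licensing factor, by 0.33 ± 0.06. The helicase genes MCM4 and MCM7 fell by 0.30 ± 0.05 and 0.29 ± 0.05, with adjusted p-values of these 4 genes between 0.00286 and 0.00390 (limma). Each of these 4 calls was lost without siRPL13 replicate 1 (adjusted p 0.0782 to 0.120), and the count of 10 then became 0. The list's median deviation from siNC was -0.35, -0.25 and 0.09 in siRPL13. On the log2 scale its summed level was 16.13, 16.22 and 16.54 in siRPL13, against 16.39 to 16.50 in siNC. Over 6 libraries the differences of TYMS, CDC6, MCM4 and MCM7 were -0.26, -0.23, -0.18 and -0.15 (adjusted p 0.589 to 0.672), and 0 of 15 passed, with a median difference of -0.18. Whether the share of cells in S phase had a part in the values of the E cyclins and CDK2 was not tested.

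**Figure D4:**
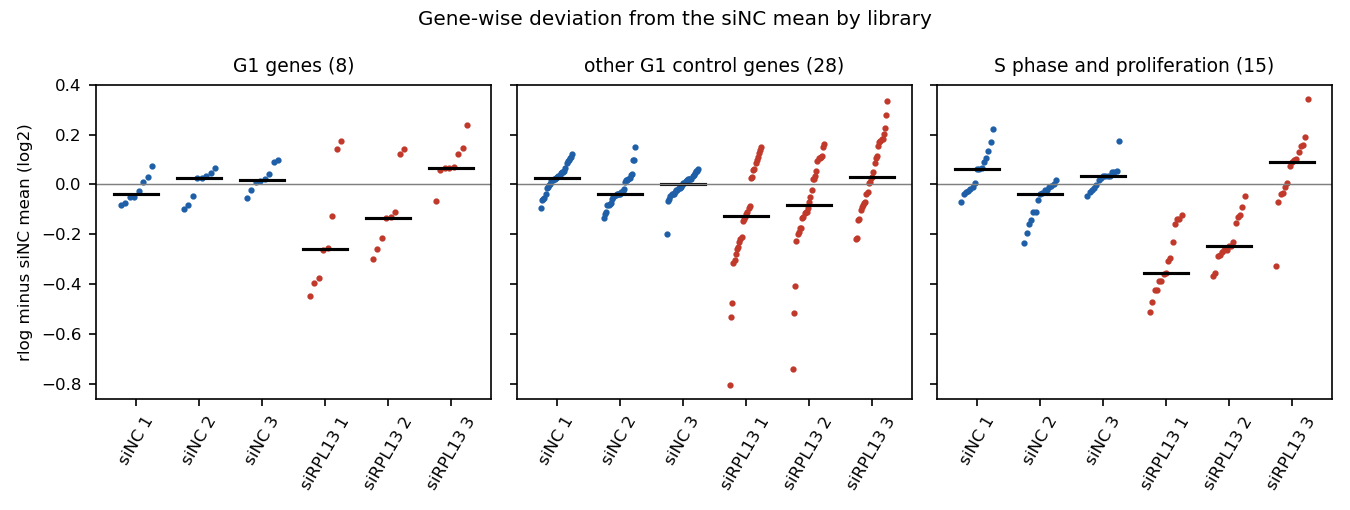
Deviation of each gene from its siNC mean (vertical axis, log2) by library, for the 8 members, 28 other G1 control genes and 15 S phase and proliferation markers, 1 point per gene and a bar for the median, blue for siNC and red for siRPL13. The member medians are -0.26, -0.13 and 0.07 in siRPL13 replicates 1 to 3, and those of the S phase and proliferation markers are -0.35, -0.25 and 0.09.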

How the data were processed

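RNA of 6 U251 samples, 3 per group, was sequenced. The authors deposited log2 values named rlog in their table, a transform that corrects for sequencing depth and shrinks each gene towards its average, which understates differences of genes with few reads. Per the submitters' processing notes, Trimmomatic 0.33, TopHat, HTSeq 0.6.1p1, DESeq2 and GRCh38.p7 were used, without role or settings. Read depth is unknown, and no count model was run.

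Symbols came from a table of gene names (20499 of 21429 identifiers) and positions from GENCODE 29. The 15327 genes averaging 3 or more (rlog) were fitted with limma 3.58.1 in R 4.3.3 (eBayes, trend by mean level, two-sided, Benjamini-Hochberg adjustment over all genes tested, threshold 0.05). Every p is from limma. The labels call the libraries biological replicates without saying how the cultures were kept apart, and these p-values rest on the spread between them. Library medians lay between 9.12 and 9.13.

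The members and lists were chosen with earlier results of these data known. Named were all members, RPL13, APP, called genes of the other G1 list, the other CDK inhibitors, the 4 S phase markers with the lowest p, and the 3 genes nearest in pattern to the 2 widest-ranging members. STMN2, RB1, E2F4 and the cell type markers given were picked after their values were seen. Where RefSeq lists several starts, the window with the most GENCODE coding transcripts starting within 50 bases was taken. That number was 0 of 2 for CDKN1B, 0 of 3 for CCNE1, 1 of 8 for CCND3, 1 of 3 for CDK4 and 1 of 2 for CDK6. In simulated data 200 genes were changed, and the noise of both groups was drawn from the spread of the siNC libraries alone. There, 2 against 3 libraries recovered 10% of genes changed by 0.25 and 61% of those changed by 0.5 (log2), with 3 unchanged genes called. With 3 against 3 libraries these were 28% and 75%, with 4 unchanged genes called. The 5-library comparison itself called 1642 genes lower and 1291 higher, so these shares do not give the recovery in the data. Alternatives tried: all genes unfiltered, a minimum average of 5, quantile scaling, no trend, library weights, the replicate number as a block and leaving out each library. Figures were drawn with matplotlib 3.10.9.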

Additional observations from a re-analysis of the deposited data

How the results depend on the processing

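With all 6 libraries, library weights gave 4 members lower (CCND1, CCND3, CDK2 and CDKN1B, but not CCNE1) and 2 higher. They gave 9 of the other G1 control genes lower and 3 higher, 11 S phase markers lower, and 2708 genes lower and 2601 higher in all. The weight of the library labelled siRPL13 replicate 3 was 0.163 and that of siRPL13 replicate 2 was 7.19. The estimation of the weights stopped before its convergence tolerance in both comparisons, so every count from them is provisional. Leaving out each library gave 0 to 4 members lower, 0 to 8 other G1 control genes lower, 0 to 10 S phase markers lower and, over all genes, 0 to 1642 lower and 0 to 1291 higher, every count above 0 coming from the fit without the library labelled siRPL13 replicate 3. Members with all siRPL13 below all siNC libraries numbered 1 to 6, and quantile scaling left 1 above. Leave-one-out differences ranged from -0.25 to 0.0055 for CCNE1 and from -0.25 to 0.052 for CDC25A, turning positive without siRPL13 replicate 1, and from -0.052 to 0.016 for APP.

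In the 5-library comparison quantile scaling gave 2 members higher and library weights 1, with 2007 genes higher in all. Library weights also gave 6 members lower there, CCND1 and CCNE2 among them. Further leave-one-outs gave 0 to 4 members lower, 0 to 1 higher, 2 to 8 other G1 control genes lower, 0 to 12 S phase markers lower, and 141 to 2014 genes lower and 102 to 1734 higher; where 1 siRPL13 library remained, it was assumed to vary like the others. APP ranged from -0.026 to 0.043. Of the member differences, 0 changed sign in the 5-library comparison, and the cause of these changes was not tested.

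The replicate numbers were not taken as pairs. Deviations from the group means correlated across genes at 0.08, -0.43 and -0.33 in same-numbered libraries. The highest value, 0.45, was that of siNC replicate 2 with the siRPL13-labelled replicate 3. That library shifts the siRPL13 mean and so the deviations of the other siRPL13 libraries, and these correlations cannot decide whether the numbers were pairs. With the replicate block, 0 members were called over 6 libraries and 4 lower and 0 higher in the 5-library comparison. Depth is unknown. Changes of 0.25 were seldom recovered in the simulation, but its noise came from siNC alone and only 200 genes were changed. It therefore does not give the recovery in the data.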
